A study of Mus musculus with 6 samples.

Results

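The CCAAT/enhancer-binding protein (C/EBP) genes were followed in cultured mouse aortic smooth muscle cells exposed to trimethylamine N-oxide (TMAO). The liver forms this compound by oxidizing trimethylamine, which gut bacteria release from dietary choline and carnitine. The members were the rows named Cebpa, Cebpb, Cebpd, Cebpg and Cebpz, 5 genes of the 25939 listed. Cells received TMAO or control treatment for 48 h, with 3 libraries of RNA sequencing in each group. The labels give no dose of TMAO and do not say whether the 3 samples of a group came from separate animals, so the spread between them may be technical. The family was selected on its FPKM values in the same 6 libraries, with the difference between TMAO and Control already known. The members' own differences are therefore a description, and limma calls that include them are no independent test.

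C/EBP proteins are transcription factors of the basic leucine zipper (bZIP) class. They bind DNA as pairs, with each other or with other bZIP proteins such as ATF4 and CHOP. C/EBP alpha (Cebpa) drives differentiation of fat, liver and myeloid cells, whereas C/EBP beta (Cebpb) and delta (Cebpd) are induced by inflammatory cytokines. C/EBP gamma (Cebpg) lacks most of the activation region and acts through its partners, among them ATF4. Cebpz shares the name and not the zipper: it codes for a protein of the CBF family whose yeast relative takes part in assembly of the large ribosomal subunit. In smooth muscle cells Cebpb and Cebpd are known as cytokine-responsive genes.

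The promoters of the bZIP members are shown to give the sequence next to each start site; the data do not bear on which motifs are used. RefSeq sequences on GRCm38.p6 were matched for 3 of the 5 members, Cebpa, Cebpb and Cebpg. The 250 bases before the annotated start site lie at chr2:167688665-167688914 on the plus strand for Cebpb. For Cebpa they lie at chr7:35119043-35119292 on the plus strand, and for Cebpg at chr7:35056567-35056816 on the minus strand. The Cebpg span given below comes from another annotation and ends at 35056573, so a few bases of the window lie inside it. Capitals mark matches, on either strand, to the cAMP response element half-site TGACG, the CCAAT box, the TATA box TATAAA or the C/EBP motif TTGCNNAA.
Cebpb: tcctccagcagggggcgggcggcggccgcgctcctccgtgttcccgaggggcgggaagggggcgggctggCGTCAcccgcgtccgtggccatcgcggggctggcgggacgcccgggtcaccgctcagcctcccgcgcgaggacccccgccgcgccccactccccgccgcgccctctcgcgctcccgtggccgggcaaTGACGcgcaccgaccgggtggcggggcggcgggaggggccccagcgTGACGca
Cebpa: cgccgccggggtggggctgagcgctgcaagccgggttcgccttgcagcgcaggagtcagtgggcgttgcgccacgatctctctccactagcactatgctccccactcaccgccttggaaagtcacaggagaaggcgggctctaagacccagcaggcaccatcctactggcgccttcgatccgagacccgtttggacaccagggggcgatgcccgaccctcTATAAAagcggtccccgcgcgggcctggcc
Cebpg: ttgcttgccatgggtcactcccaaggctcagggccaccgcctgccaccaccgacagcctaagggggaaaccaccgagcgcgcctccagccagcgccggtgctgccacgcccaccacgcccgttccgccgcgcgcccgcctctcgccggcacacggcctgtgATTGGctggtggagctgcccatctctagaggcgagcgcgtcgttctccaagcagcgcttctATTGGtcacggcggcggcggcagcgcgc

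The Cebpb window held 3 matches to TGACG, the last of them at bases -7 to -3 from the start site, and no match to the other motifs. The Cebpa window held a TATAAA at bases -30 to -25 and none of the others. The Cebpg window held 2 CCAAT boxes, at bases -89 to -85 and -28 to -24, and none of the others. No marked match overlapped another. Of 32536 mouse promoter windows of the same length, 17.9% held TGACG, 33.8% CCAAT, 12.3% TATAAA and 9.57% TTGCNNAA. The GC content of the windows was 81.6% for Cebpb, 66.4% for Cebpa and 70.8% for Cebpg.

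Cebpb was the member that differed between the groups. Its RNA stood at 2.66, 3.08 and 3.24 FPKM, a fragment count corrected for exon length and sequencing depth, in TMAO 1 to 3, against 4.83, 6.27 and 5.46 FPKM in Control 1 to 3. The groups did not overlap, and the highest TMAO library, TMAO 3, lay below the lowest Control library, Control 1. The means were 2.99 ± 0.302 FPKM in TMAO and 5.52 ± 0.722 FPKM in Control (SD, n = 3 each), so the mean level fell by 45.8% in TMAO. On the log2(FPKM + 1) scale the difference was -0.70 ± 0.095 (SE), TMAO minus Control. Cebpb (ENSMUSG00000056501) lies on chromosome 2 at 167688915 to 167690418 of mm10, plus strand, and is annotated with a single block of exon. In bulk RNA, fewer cells that express a gene and less of its RNA per cell cannot be told apart.

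**Figure D1:**
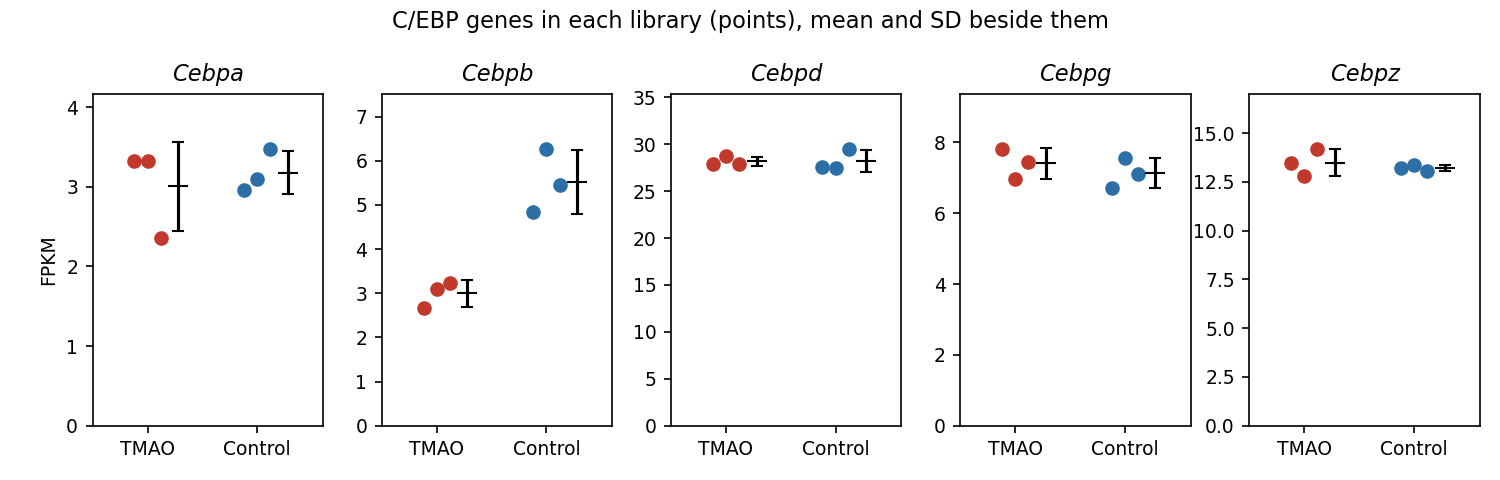
FPKM of each C/EBP gene in the 3 TMAO libraries (red points, left) and the 3 Control libraries (blue points, right), with the group mean and SD in black and each axis starting at 0. The groups are separate for Cebpb, at 2.66 to 3.24 FPKM in TMAO against 4.83 to 6.27 FPKM in Control, and overlap for the other members.

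These levels rest on few reads. With the annotated exon length, the Cebpb values correspond to 66, 74 and 73 reads in TMAO 1 to 3, against 109, 142 and 138 reads in Control 1 to 3. Summed over each group they are 213 reads in TMAO (exact Poisson 95% interval 185 to 244) and 389 reads in Control (351 to 430). The intervals of the sums do not meet, but those of the nearest single libraries do, at 2.54 to 4.07 FPKM in TMAO 3 and 3.96 to 5.82 FPKM in Control 1. All of them cover counting error only.

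Across all genes, 20 of 11062 tested genes (0.181%) passed limma's test at an adjusted p of 0.05, 8 of them higher and 12 lower in TMAO. Of the 5 members, 1 was among those called lower, which is Cebpb, where 0.108% of all tested genes were called lower and 0.0723% higher. It was also the 1 member whose TMAO libraries all lay below all Control libraries, as in 6.23% of tested genes. None of the other 4 members was called. The difference of Cebpb was the largest fall among the 12 genes called lower and the 8th lowest of all 11062 differences. Since the family was picked with this contrast known, the call of Cebpb, its rank and its calls under alternatives are a description. Cebpb was no longer called without Control replicate 3 (difference -0.71), without TMAO replicate 1 (-0.64) or when all 25939 genes were tested with no filter (-0.70), and it was called in the other 12 of 15 alternatives. With quantile normalization the split was 7 higher and 18 lower genes, and with GC and length trends removed it was 10 and 37.

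**Figure D2:**
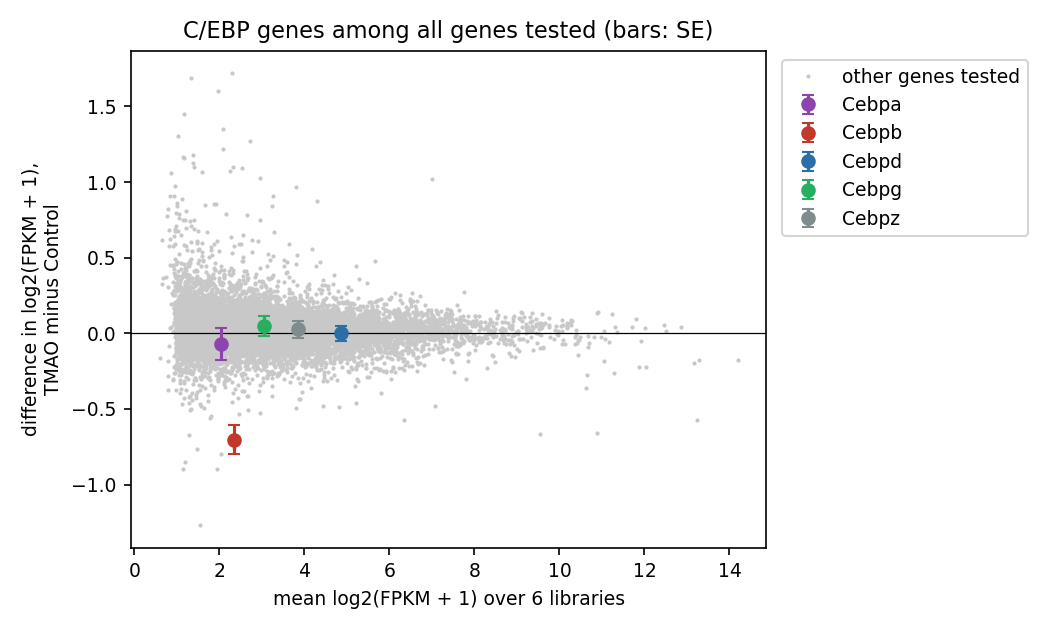
Difference in log2(FPKM + 1), TMAO minus Control, against the mean log2(FPKM + 1) over the 6 libraries for the 11062 tested genes (grey) and the 5 C/EBP genes (coloured, with SE bars). Cebpb lies at -0.70, and the other members lie between -0.07 and 0.05.

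Cebpd was the most abundant member. It stood at 27.9, 28.8 and 27.9 FPKM in TMAO 1 to 3, against 27.6, 27.4 and 29.5 FPKM in Control 1 to 3. The groups overlapped, with means of 28.2 ± 0.496 FPKM in TMAO and 28.2 ± 1.15 FPKM in Control (SD, n = 3 each). The difference on the log2(FPKM + 1) scale was 0.00039 ± 0.049 (SE), and over the alternatives it ran from -0.04 to 0.03. Cebpd values rest on 1569 to 1724 reads per TMAO library and 1548 to 1858 per Control library, so counting error was 1.41% of the TMAO sum and 1.42% of the Control sum. Cebpb and Cebpd are both known as cytokine-responsive members, and here only the first of them was called; the difference between their responses was not tested.

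Cebpa had 3.33, 3.33 and 2.35 FPKM in TMAO 1 to 3, against 2.96, 3.10 and 3.48 FPKM in Control 1 to 3. TMAO 3 was the lowest of the 6 libraries, at 93 reads against 145 and 140 in the other TMAO libraries, while the other TMAO libraries lay within the Control range. The difference was -0.07 ± 0.107 (SE) on the log2(FPKM + 1) scale, and without TMAO replicate 3 it turned to 0.05. An antisense gene, Gm45091, shares 51 exon bases with Cebpa on the opposite strand. It had 2, 2 and 9 reads in TMAO 1 to 3, against 2, 1 and 1 reads in Control 1 to 3, so that its highest library was the one in which Cebpa was lowest. Whether the 2 are related was not tested.

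Cebpg had 7.82, 6.96 and 7.44 FPKM in TMAO 1 to 3, against 6.72, 7.57 and 7.09 FPKM in Control 1 to 3. The groups overlapped, and the difference was 0.05 ± 0.068 (SE) on the log2(FPKM + 1) scale. Cebpg and Cebpa are neighbours on chromosome 7, with Cebpg at 35046422 to 35056573 on the minus strand and Cebpa at 35119293 to 35121928 on the plus strand. The gap between them is 62720 bases, with no tested gene inside it. Gm44836, annotated inside Cebpg on the same strand, shares 1.30% of the exon bases of Cebpg and had 7, 5 and 4 reads in TMAO 1 to 3, against 1, 3 and 1 reads in Control 1 to 3.

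Cebpz had 13.5, 12.8 and 14.2 FPKM in TMAO 1 to 3, against 13.2, 13.4 and 13.1 FPKM in Control 1 to 3. TMAO 3 was the highest library and TMAO 2 the lowest, so the Control libraries lay inside the TMAO range. The difference was 0.03 ± 0.056 (SE) on the log2(FPKM + 1) scale. Cebpz (chromosome 17, 78919006 to 78937066, minus strand) has 16 blocks of exon and shares 3.67% of its exon bases with Cebpzos on the opposite strand. Cebpzos stood at 1.33 ± 0.149 FPKM in TMAO and 1.45 ± 0.0631 FPKM in Control (SD, n = 3 each; limma adjusted p = 0.755). Ndufaf7, a mitochondrial complex I assembly factor gene, starts 70 bases from the start of Cebpz in the opposite direction, and stood at 8.20 ± 0.930 FPKM in TMAO and 7.70 ± 0.538 FPKM in Control (SD, n = 3 each; limma adjusted p = 0.743).

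Cebpe, the granulocyte member of the family, was listed beside the 5 genes. It had 0 reads in 5 libraries and 1 read in Control 3. A count of 0 allows up to 3 reads, which is 0.146 to 0.161 FPKM across those 5 libraries. CHOP (Ddit3), a C/EBP homologue that pairs with C/EBP proteins and is induced by endoplasmic reticulum stress, stood at 23.4, 20.3 and 21.4 FPKM in TMAO 1 to 3, against 18.0, 19.1 and 20.2 FPKM in Control 1 to 3. The groups were separate by a narrow margin, with TMAO above Control as in 12.4% of all tested genes. Ddit3 was not called (log2 difference 0.18 ± 0.064 SE, limma adjusted p = 0.282).

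FPKM is scaled by exon length, and levels are set between genes here on that basis. That scaling does not correct for GC content or for exon bases shared with other genes, so the order is approximate. In the TMAO libraries the order was Cebpd, Cebpz and Cebpg, with Cebpb and Cebpa together at the bottom, where 2.66 to 3.24 FPKM for Cebpb lay inside 2.35 to 3.33 FPKM for Cebpa. In the Control libraries the order was Cebpd, Cebpz, Cebpg, Cebpb and Cebpa, and no neighbours in that order overlapped over the 3 libraries. Within a library, Cebpb stood to Cebpa at a ratio of 0.798, 0.926 and 1.38 in TMAO 1 to 3, against 1.63, 2.02 and 1.57 in Control 1 to 3.

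The bZIP members together made up 41.6 ± 0.579 FPKM in TMAO and 44.0 ± 1.74 FPKM in Control (SD, n = 3 each). Cebpb took 6.38%, 7.32% and 7.90% of that sum in TMAO 1 to 3, against 11.5%, 14.1% and 11.99% in Control 1 to 3. Cebpd took 66.9% to 68.3% of it in the TMAO libraries and 61.8% to 65.6% in the Control libraries. The level of Cebpd itself overlapped between the groups, as given above. Cebpg stood to Cebpb at a ratio of 2.50 ± 0.385 in TMAO and 1.30 ± 0.0920 in Control (SD, n = 3 each). The shares, and the ratios here and above, all contain Cebpb, so their differences largely restate that of Cebpb.

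**Figure D3:**
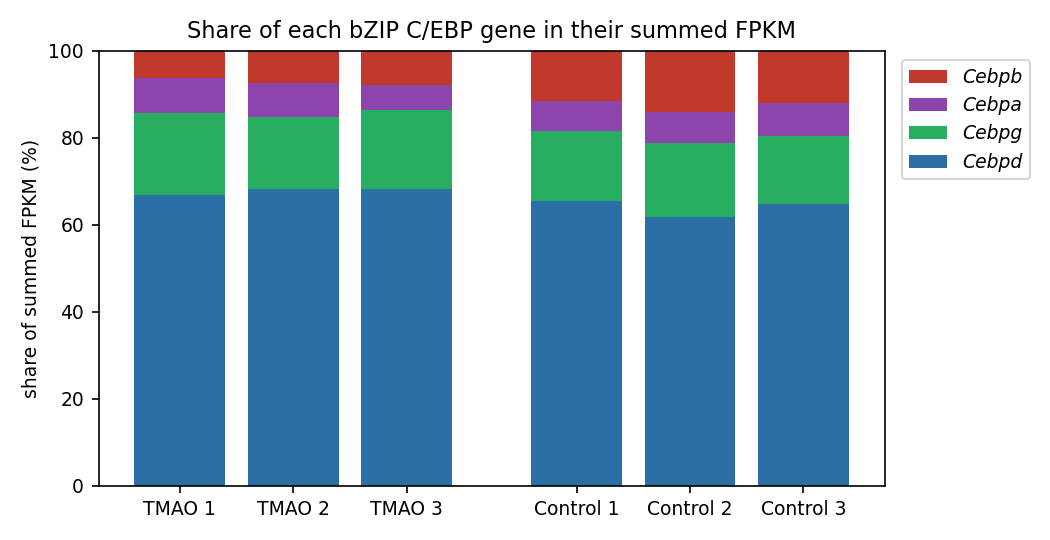
Share of Cebpd, Cebpg, Cebpa and Cebpb in their summed FPKM, in percent, for each TMAO library (left) and each Control library (right). The Cebpb share, at the top of each bar, is 6.38% to 7.90% in TMAO and 11.5% to 14.1% in Control.

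Cebpa, Cebpb and Cebpd are annotated with a single block of exon, a feature of 2.46% of the 9859 protein-coding genes tested. The 243 such genes had a median difference of -0.00032 on the log2(FPKM + 1) scale, with 5% of them below -0.23. Limma called 2 of them lower, Cebpb itself being 1 of the 2, and 0 higher. Of all 9859 protein-coding genes tested, 5% were below -0.15, and 11 were called lower and 6 higher. Transcripts of Cebpb and Cebpa are also rich in G and C, at 67.2% and 62.6%, where the median of tested protein-coding genes was 49.3%. Of the 25 tested genes with a single block of exon and at least 60% GC, Cebpb had the lowest difference, and the median was -0.03. With GC and exon length trends removed from every library, the difference of Cebpb was -0.61.

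The counting could also touch Cebpb through its neighbour. Tmem189, a membrane protein gene on the opposite strand, covers 312 exon bases of Cebpb, which are 20.7% of its length. The strand setting of the counting is not given in the sources used here, so reads from the shared bases cannot be told apart. Tmem189 stood at 5.15, 4.51 and 4.99 FPKM in TMAO 1 to 3, against 4.16, 4.51 and 4.94 FPKM in Control 1 to 3, with overlapping groups and no call (log2 difference 0.09 ± 0.078 SE, limma adjusted p = 0.689). Spidr, likewise on the opposite strand, covers 15.0% of the exon bases of Cebpd and stood at 5.54 ± 0.151 FPKM in TMAO and 5.15 ± 0.216 FPKM in Control (SD, n = 3 each; limma adjusted p = 0.608). The nearest tested genes that do not overlap Cebpb were Snai1, a transcription factor gene 146101 bases away, and the phosphatase gene Ptpn1, 241639 bases away. They had log2 differences of 0.13 ± 0.143 and -0.10 ± 0.094 (SE), with limma adjusted p = 0.751 and 0.702.

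Among 10032 tested genes other than predicted models, the profiles closest to Cebpb over the 6 libraries were those of Cck, Hmgn5 and Aspn. Their root mean square distances to Cebpb on the centred log2(FPKM + 1) scale were 0.146, 0.154 and 0.155. These are a peptide hormone, a nucleosome-binding protein and a matrix proteoglycan gene, all called lower in the same contrast. Their log2 differences were -0.48, -0.49 and -0.57, each smaller in size than that of Cebpb. They were picked for nearness to the profile of Cebpb, so lower values in TMAO follow from the choice. For Cebpa, the member with the next difference in size, the closest were the methyltransferase gene Mrm1, the cell cycle inhibitor gene Cdkn2c and the GTPase gene Rab35, at distances of 0.0273, 0.0372 and 0.0400. Each of them had its lowest value in TMAO 3, as Cebpa did, which likewise follows from the choice.

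The surroundings of the family were described with 9 further lists, 96 genes in the tables of which 69 were tested. Limma called 0 of the 69, where 0.181% of all tested genes were called. That share stands beside the calls of each list below. Of the 69, 17 (24.6%) had an unadjusted limma p under 0.05, where 13.1% of all tested genes did. The lists were chosen with earlier results of these data known, so these counts are a description. Voom with limma on the recovered reads called 2 of the list genes, Fos and C3, and 90 genes in all. The smallest limma adjusted p was 0.0940. The median difference of all tested genes was 0.02 on the log2(FPKM + 1) scale.

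**Figure D4:**
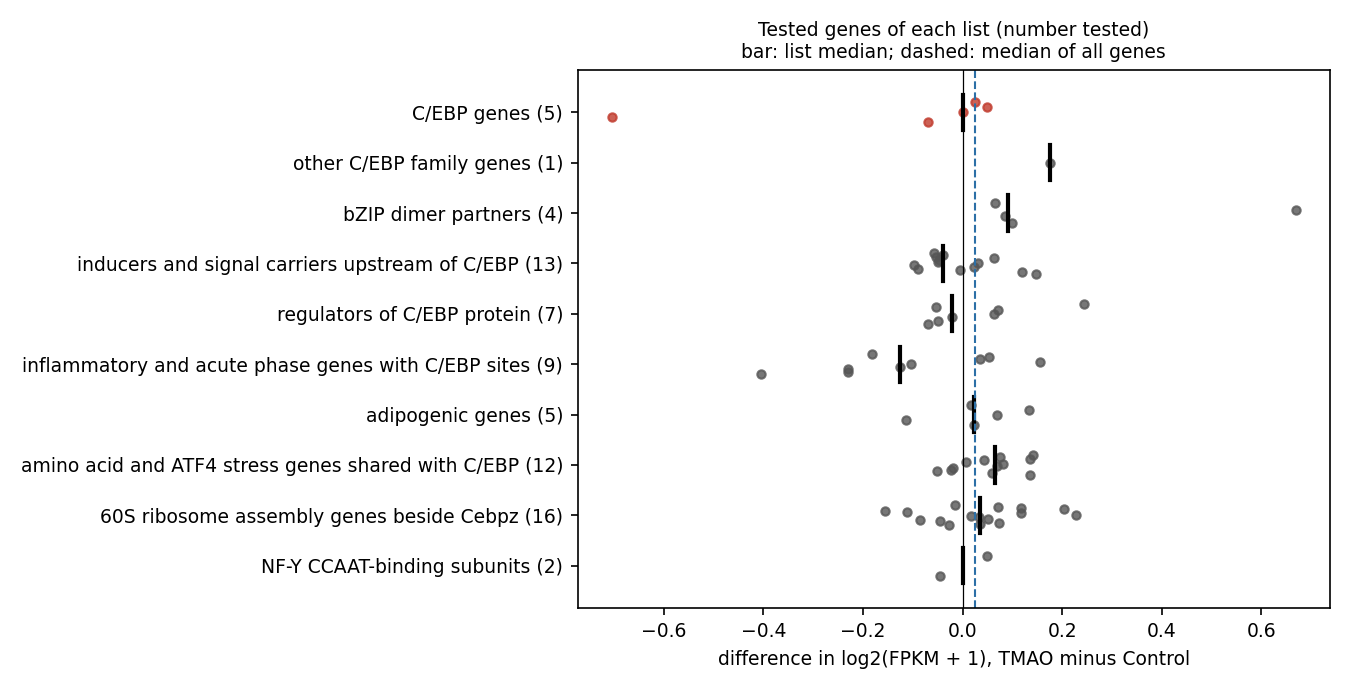
Difference in log2(FPKM + 1), TMAO minus Control, of every tested gene in each list (points), with the list median as a black bar, 0 as a thin line and the median of all tested genes, 0.02, as a dashed line. Numbers beside the names count tested genes. Cebpb at -0.70 and Fos at 0.67 lie farthest out, and the inflammatory list has its median at -0.13.

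The bZIP genes whose proteins pair with C/EBP proteins were above 0 in 4 of 4 tested cases, where 6638 of all 11062 tested genes were above 0, with 0 called and a median of 0.09. Fos stood at 13.3, 9.60 and 10.98 FPKM in TMAO 1 to 3, against 5.86, 7.56 and 6.70 FPKM in Control 1 to 3 (log2 difference 0.67 ± 0.121 SE, limma adjusted p = 0.0940). It was called with voom on the recovered reads (0.75, adjusted p = 0.00605) and without TMAO replicate 2 (0.77, limma adjusted p = 0.0371). All TMAO libraries of Fos lay above all Control libraries, as in 12.4% of all tested genes, in the other direction from Cebpb. Atf4, which codes for the central factor of the amino acid response and a known partner of C/EBP beta and gamma, stood at 124 ± 3.26 FPKM in TMAO and 116 ± 2.60 FPKM in Control (SD, n = 3 each; limma adjusted p = 0.353). Atf5 stood at 79.3 ± 4.78 FPKM in TMAO and 74.8 ± 5.76 FPKM in Control (limma adjusted p = 0.621). Atf3, Batf, Batf2 and Batf3 were below the filter, at no more than 0.702 FPKM in any library.

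Genes upstream of Cebpb and Cebpd include cytokines, their receptors and the kinases that carry their signals. Limma called 0 of the 13 tested, where 0.181% of all tested genes were called. Their median difference was -0.04, in a range from -0.10 to 0.15. Of the 13, 8 were below 0, as were 4424 of all 11062 tested genes. Creb1, which codes for the factor that binds cAMP response elements, stood at 3.00 ± 0.205 FPKM in TMAO and 2.62 ± 0.156 FPKM in Control (SD, n = 3 each; log2 difference 0.15, limma adjusted p = 0.460). Gsk3b, a kinase that phosphorylates C/EBP proteins, had a log2 difference of 0.12 (limma adjusted p = 0.501). The cytokine gene Il6, which is both an inducer and a target of C/EBP beta, was below the filter. It stood at 1.05, 1.19 and 0.989 FPKM in TMAO 1 to 3, against 0.521, 0.711 and 0.784 FPKM in Control 1 to 3. These values rest on 42, 46 and 36 reads in TMAO 1 to 3, against 19, 26 and 32 reads in Control 1 to 3. All TMAO values of Il6 lay above the Control values, an order found in 12.4% of all tested genes. Those of Cebpb lay below, as in 6.23% of tested genes.

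Of the genes whose products act on C/EBP protein, 0 of 7 were called, with a median of -0.02. Trib2, a pseudokinase that brings C/EBP alpha to the ubiquitin ligase COP1, stood at 10.97, 9.11 and 10.1 FPKM in TMAO 1 to 3, against 7.60, 9.34 and 8.07 FPKM in Control 1 to 3. The groups overlapped (log2 difference 0.24 ± 0.085 SE, limma adjusted p = 0.260). The SUMO ligase gene Pias4 had a log2 difference of 0.07 (limma adjusted p = 0.720).

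Inflammatory and acute phase genes with known C/EBP sites had the lowest median of the lists of further genes, -0.13 over 9 tested genes, with 6 below 0 and 0 called. In 4 of the 9 all TMAO libraries lay below all Control libraries, as in 6.23% of all tested genes. Complement C3 stood at 1.51, 1.30 and 1.34 FPKM in TMAO 1 to 3, against 1.93, 2.26 and 2.28 FPKM in Control 1 to 3. Its log2 difference was -0.40 ± 0.085 (SE) at a limma adjusted p = 0.0982, and it was called with voom on the recovered reads (-0.64, adjusted p = 0.0232) and with GC and length trends removed (-0.45, limma adjusted p = 0.0356). The monocyte chemokine gene Ccl2 stood at 57.9, 65.4 and 61.3 FPKM in TMAO 1 to 3, against 75.7, 66.0 and 75.4 FPKM in Control 1 to 3 (-0.23 ± 0.064 SE, limma adjusted p = 0.180). The haptoglobin gene Hp stood at 1.98 ± 0.149 FPKM in TMAO and 2.51 ± 0.412 FPKM in Control (SD, n = 3 each; -0.23, limma adjusted p = 0.355). The other 9 genes of that list, among them Lcn2, Saa3 and Nos2, were below the filter, at no more than 1.29 FPKM in any library.

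The adipogenic genes, which C/EBP alpha and PPAR gamma drive in fat cells, had 0 of 5 called and a median of 0.02. The transcription factor gene Klf15 stood at 4.92 ± 0.109 FPKM in TMAO and 5.40 ± 0.146 FPKM in Control (SD, n = 3 each; log2 difference -0.11, limma adjusted p = 0.489). Pparg and the lipase gene Lpl had log2 differences of 0.13 and 0.07 (limma adjusted p = 0.640 and 0.742). Genes of the amino acid response, where C/EBP beta and gamma act with ATF4, had 0 of 12 called, 9 above 0 and a median of 0.06. In 5 of the 12 all TMAO libraries lay above all Control libraries, as in 12.4% of all tested genes. The asparagine synthetase gene Asns stood at 130 ± 1.94 FPKM in TMAO and 118 ± 2.17 FPKM in Control (SD, n = 3 each; 0.14, limma adjusted p = 0.206). The autophagy receptor gene Sqstm1 and the lipoprotein receptor gene Vldlr had log2 differences of 0.14 and 0.14 (limma adjusted p = 0.227 and 0.442).

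Ribosome assembly genes, set beside Cebpz, had 0 of 16 called and a median of 0.03. Of the 16, 10 were above 0, a share close to that of all tested genes (6638 of 11062). In 6 of the 16 all TMAO libraries lay above all Control libraries, and in 1 all lay below, against 12.4% and 6.23% of all tested genes. The nucleolar chaperone gene Npm1 stood at 467 ± 12.3 FPKM in TMAO and 520 ± 14.8 FPKM in Control (SD, n = 3 each; log2 difference -0.16, limma adjusted p = 0.168). Npm1 has near-identical processed copies, so its level is uncertain. The rRNA methyltransferase gene Nop2 stood at 10.2 ± 0.638 FPKM in TMAO and 8.54 ± 0.676 FPKM in Control (0.23, limma adjusted p = 0.221), and Pes1 had a log2 difference of 0.12 (limma adjusted p = 0.320). Nfyc and Nfyb, subunits of NF-Y, the factor that binds CCAAT boxes, had log2 differences of 0.05 and -0.05 (limma adjusted p = 0.751 and 0.841).

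Totals implied by the FPKM values ran from 14991252 to 16524834 reads in TMAO libraries and from 15015258 to 16806728 in Control libraries. Of 8 smooth muscle markers 5 were tested and 0 called, with a summed level of 592 to 611 FPKM in TMAO and 609 to 614 FPKM in Control. Acta2 led that sum, while the defining markers Tagln, Cnn1 and Myh11 were under 1 FPKM in every library. Of 8 myeloid markers, cells in which C/EBP genes are highly used, 2 were tested, Lyz2 and Cd68. The sum was 70.7 to 79.2 FPKM in TMAO and 74.6 to 91.3 FPKM in Control. Lyz2 led that sum, at 65.0 to 72.8 FPKM in TMAO and 70.0 to 84.8 FPKM in Control. Myeloid markers below the filter were at no more than 0.989 FPKM in any library, and the pan-leukocyte marker Ptprc at no more than 0.06 FPKM. Of 6 fibroblast markers 5 were tested and 0 called, with a sum of 210.5 to 229 FPKM in TMAO and 232 to 264 FPKM in Control. Col1a1 led that sum, at 155.8 to 171.3 FPKM in TMAO and 174.2 to 206.0 FPKM in Control. Of the 5 tested fibroblast markers, 3 had a difference below 0 and 2 above. Adipocyte and endothelial markers, 5 of 6 listed in each case, had 0 tested and summed to no more than 0.598 and 0.684 FPKM. Beside the lower Cebpb, mitochondrial genes took 6.36% to 6.65% of reads in TMAO and 7.23% to 7.84% in Control, and the nuclear RNA Malat1 stood at 153 to 218 FPKM in TMAO and 75.0 to 113 FPKM in Control. Their part in the difference of Cebpb was not tested.

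**Figure D5:**
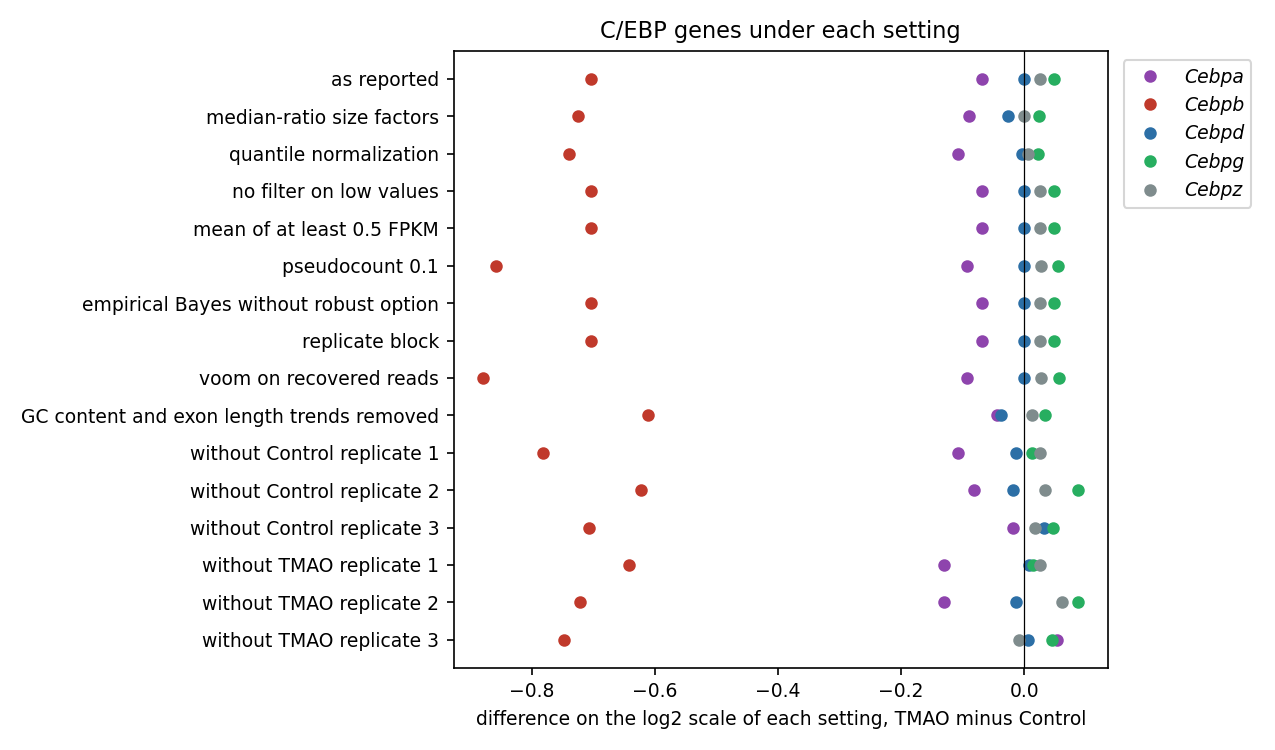
Difference, TMAO minus Control, of each C/EBP gene on the log2 scale of each setting, for the values as reported (top) and 15 alternatives. Cebpb stays between -0.88 and -0.61, and the other members stay between -0.13 and 0.09.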

How the data were processed

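RNA was measured in 3 TMAO and 3 Control libraries, grouped by title. The authors deposited 1 table per library in FPKM; the Control 1 header spells the unit PKM. The kit was TruSeq Stranded mRNA, per the labels' protocols. The submitters' processing notes list Trimmomatic, HISAT2, Cufflinks, HTSeq and the build mm10; the sources used here give neither the gene annotation nor the strand setting. With exon lengths of GENCODE M21 (mm10) and 1 total per library, the values of 25499 genes (98.5% of those annotated) gave whole reads to within 0.01 in all 6 libraries.

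TMAO was compared with Control by a trended, robust limma fit (version 3.58.1, R 4.3.3) on log2(FPKM + 1), a scale that understates changes of low genes. Genes below 1 FPKM in more than 3 of the 6 libraries were filtered out. P-values are two-sided, Benjamini-Hochberg adjusted over 11062 genes. No p is given for the 5 members. Members and lists were chosen with earlier results of these data known; classes by exon number and GC were added after their values were seen. From each further list, called genes were named, otherwise up to 3 tested genes with the smallest p; some genes this rule names are not reported here. Alternatives were 2 normalizations, 2 filters, a pseudocount of 0.1, a non-robust fit, a replicate block, voom on recovered reads, removal of GC and length trends, and each library left out in turn. Python 3.11.15 with pandas 2.3.3 made tables.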

Additional observations from a re-analysis of the deposited data

How the results depend on the processing

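Over 15 alternatives Cebpb kept its direction, from -0.88 to -0.61; it moved by more than the spread between replicates with a pseudocount of 0.1 (-0.86) and with voom on recovered reads (-0.88), scales that shrink low genes less. With each library left out in turn it ran from -0.78 to -0.62, Cebpa from -0.13 to 0.05, Cebpd from -0.02 to 0.03, Cebpg from 0.01 to 0.09 and Cebpz from -0.01 to 0.06. Of 20 called genes (8 higher, 12 lower), the count became 0 (0 and 0) with no filter, 90 (38 and 52) with voom, 47 (10 and 37) with GC and length trends removed, and 11 to 56 (5 to 42 higher, 3 to 14 lower) with 1 library left out; the cause was not tested. Among the further lists 0 became 2 with voom, 1 with trends removed and 0 to 1 with 1 library left out. With the replicate block 22 genes were called (12 higher, 10 lower) and Cebpb stood at -0.70. Same-numbered libraries did not deviate together (correlations of -0.09, -0.10 and 0.06), and not every library correlated best with its own number. These values give no sign of pairing by number. They cannot tell whether samples were paired by culture or day. Depth limits Cebpb and Cebpa most, with 66 to 154 reads per library.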

Other observations

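A pair of chemokine genes with known C/EBP sites, chosen after their values were seen, lay below the filter and so outside the test. The neutrophil chemokine gene Cxcl5 had 0.0974, 0.202 and 0.0358 FPKM in TMAO 1 to 3, against 0.572, 0.321 and 0.256 FPKM in Control 1 to 3. The related gene Cxcl1 had 1.29, 0.435 and 0.427 FPKM in TMAO 1 to 3, against 0.320, 0.354 and 0.413 FPKM in Control 1 to 3, and TMAO 1 stood apart from the other libraries. The Cxcl5 values rest on 3, 6 and 1 reads in TMAO 1 to 3, against 16, 9 and 8 reads in Control 1 to 3. Those of Cxcl1 rest on 40, 13 and 12 reads in TMAO 1 to 3, against 9, 10 and 13 reads in Control 1 to 3, so that apart from TMAO 1 its libraries differed by few reads.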
